A study of Sus scrofa with 12 samples.

Results

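The nuclear-encoded subunits of the oxidative phosphorylation machinery were taken as the genes of the peak table whose symbol begins with NDUFA, NDUFB, NDUFC, NDUFS, NDUFV, UQCR, COX4I, COX5, COX6, COX7, COX8 or ATP5, without the NDUFAF assembly factors, together with SDHA, SDHB, SDHC, SDHD and CYC1. The rule found 78 genes among the 11422 genes of that table and 126 peaks among its 25055. They make up 35 genes of complex I, 4 of complex II, 7 of complex III, 14 of complex IV and 18 of complex V. NDUFA4, long listed with complex I and now placed in cytochrome c oxidase, was counted in complex IV. The symbols COX6B1, NDUFA5 and ATP5ME each stand on more than 1 gene identifier, so the 78 genes carry 75 symbols.

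Complexes I to IV pass electrons from NADH and succinate to oxygen and, at I, III and IV, pump protons across the inner mitochondrial membrane. Complex V, the ATP synthase, lets the protons back and makes ATP. Most subunits are made from nuclear genes in the cytosol and imported, while a small set at the heart of the enzymes is made from mitochondrial DNA, and intestinal epithelial cells are known for a high demand for the ATP that results.

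The cells were of the established wild-type line IPEC-J2, which came from the epithelium of pig small intestine. CON cells had 0 µM and OAA cells 25 µM of the compound abbreviated OAA in the labels for 24 h, in one and the same serum-containing medium. The series title names 2-oxindole-3-acetic acid. MeRIP-seq, the assay used, sequences mRNA fragments pulled down for the modified base N6-methyladenosine (m6A) next to fragments without pull-down. For each treatment there were 3 replicate numbers, here called cultures, and every culture had 1 library with the label IP and 1 with the label input, so that the 12 libraries fell into 4 groups. Since separate growth of the cultures is not stated, the p-values below set group differences against the spread of these samples, and that spread may be technical.

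Codes and labels of the libraries contradict each other as to which were pulled down, and groups follow the labels. The peak ratio used below is labelled input divided by labelled IP, on the log2 scale and after scaling for composition (TMM), so that 0 is the typical gene, and a negative value means a smaller share of the peak reads in the labelled-input libraries. It has the direction of the authors' deposited log2 ratios, and, given that contradiction, its sign is not read as more or less m6A. The zero differs too: in the authors' deposited table all 117 subunit peaks with a CON value have a log2 ratio above 0 (median 2.60), so a negative value here is relative to the typical feature of these libraries. Libraries labelled input had 16.5 to 23.0 M reads in peaks and those labelled IP 3.71 to 4.61 M. All peaks listed under subunit genes, including those shared with neighbouring genes, held 0.323 to 0.369% of these reads in labelled input and 0.763 to 0.867% in labelled IP. All 8 epithelial markers in the gene table reached 1 FPKM (KRT8, a keratin of simple epithelia, 396), with summed levels of 1110 to 1204 in CON and 1033 to 1148 in OAA, whereas 0 of 4 fibroblast and 0 of 4 leukocyte markers did, with PTPRC at 0. Of enterocyte brush border genes 1 of 4 reached it, sucrase-isomaltase (SI, 12.8), and of endothelial markers 3 of 3, from KDR (1.15) to CDH5 (3.78), whose part in the results was not tested.

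Peaks on subunit genes covered a start codon more often than peaks in general, but they were also wider. Of the 126 member peaks, 69 (54.8%) covered a start codon, against 20.9% of all 28077 peak entries on mRNAs, and 23 (18.3%) covered a stop codon, against 24.4%. Tested peaks over a start codon alone had a median span of 1627 bp in subunit genes and 525 bp over all mRNA entries. How much of the start-codon share comes from this width was not tested. The peaks were also wide and crowded. Their median genomic span was 862 bp, and the longest, listed under NDUFA9, covered 138521 bp and has no deposited ratio. Of the 126 peaks, 9 had no count. Among tested peaks the median span was 599 bp, against 302 bp over all mRNA entries. Of the 126 peaks, 42.1% lay under more than 1 gene, against 25.8% of all mRNA entries. In consequence 58 of the 78 genes had at least 1 peak of their own, while 20 had only peaks shared with a neighbour. NDUFB7, for example, shared all of its peaks with TECR, UQCRH with NSUN4, and ATP5PF with GABPA. Per-gene counts are sums over peaks listed under 1 gene. The 20 genes without such a peak appear only in FPKM and, where a peak was tested, in the values per peak. Of the 78 genes, 72 had a tested peak.

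In untreated cells the subunit genes stood far to the negative side of the peak ratio. Of the 58 genes with a peak of their own, all of which passed the filter on low counts, 52 were called lower and 2 higher by edgeR's quasi-likelihood test at a Benjamini-Hochberg adjusted p under 0.05, and 4 were not called. Over all 9097 genes tested, 76.7% were called, 37.8% lower and 38.9% higher. The median ratio of the 58 genes was -1.55, beside 0.03 over all genes tested. In OAA-treated cells 53 genes were called lower and 2 higher, where 38% of all genes were called lower and 38.7% higher (76.7% in all), and the median was -1.66. All 5 complexes shared the shift. The CON medians were -1.49 for the 26 genes of complex I, -1.66 for the 3 of complex II, -1.25 for the 6 of complex III, -1.78 for the 11 of complex IV and -1.46 for the 12 of complex V, and the OAA medians -1.54, -1.57, -1.54, -1.92 and -1.66 in the same order. Every tested gene of complexes II, III and V was called lower in both treatments.

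**Figure D1:**
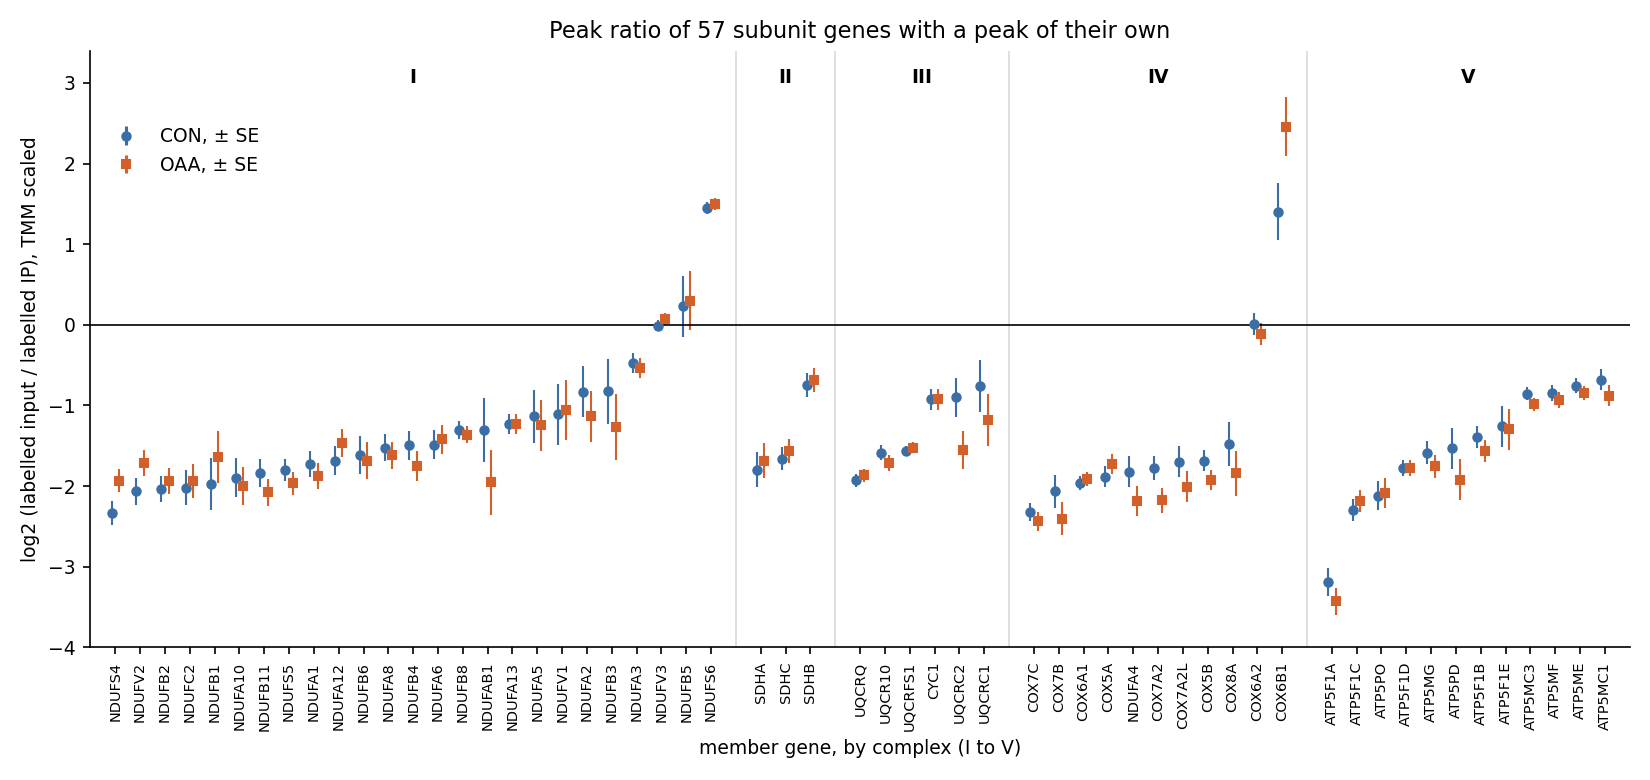
Peak ratio (log2 of labelled input over labelled IP, TMM scaled, vertical axis) of 57 of the 58 subunit genes with a peak of their own, ordered within complexes I to V, with the fitted value and its SE in CON (circles) and OAA (squares). In CON most genes lie between -0.47 and -2.34, ATP5F1A is lowest at -3.19 (-3.43 in OAA), and NDUFS6 and the COX6B1 entry with a peak of its own lie well above 0.

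The shift was seen in each culture. In 51 of the 58 genes the ratio was below 0 in each of the 6 cultures, in 2 it was above 0 in each, and 5 had values on both sides. How many of all genes keep to 1 side in this way was not counted, while 76.7% of them were called in each treatment. The median over the 58 genes was -1.21, -1.60 and -1.73 in CON cultures 1 to 3 (mean -1.51, SD 0.27) and -1.72, -1.68 and -1.36 in the OAA cultures (mean -1.59, SD 0.20), where the median over all genes stayed between 0.01 and 0.04. CON culture 1 and OAA culture 3 were nearest to 0, and the treatments overlapped. CON culture 1 had the highest ratio of its treatment in 44 of the 58 genes, its labelled-input library had the highest CPM of the 3 in 47 of them, and OAA culture 3 was highest of OAA in 46. The same counts over all genes were not made, and what set these cultures apart was not tested.

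Among the subunits of complex I, the catalytic core carries the flavin, the iron-sulphur clusters and the quinone site, and the accessory subunits surround and stabilise it. The core genes with a value were all called lower, among them NDUFV2, an iron-sulphur subunit, at -2.07 ± 0.17 (SE; all ratios per gene rest on 3 cultures per treatment), and NDUFV1, which binds NADH and flavin, at -1.11 ± 0.38. Of 23 accessory genes 19 were called lower. The lowest in CON were NDUFS4, an accessory subunit of the NADH-oxidising arm, at -2.34 ± 0.15, and NDUFB2, a membrane-arm subunit, at -2.03 ± 0.16. In OAA the lowest of complex I were NDUFB11 (-2.08 ± 0.17), NDUFA10 (-2.00 ± 0.24) and NDUFS5 (-1.97 ± 0.14). NDUFB3 was at -0.82 ± 0.40 in CON, which did not pass (edgeR adjusted p = 0.068), and at -1.27 ± 0.41 in OAA, which did.

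NDUFS6, an accessory subunit that binds zinc, ran against the rest of complex I. Its peaks held 710, 654 and 666 CPM (reads scaled to a common library size) in the labelled-input libraries of CON cultures 1 to 3, but 247, 260 and 237 in the labelled-IP libraries. The OAA cultures gave 709, 730 and 611 in labelled input and 252, 248 and 224 in labelled IP. No labelled-IP library came near a labelled-input one, whereas for most other subunit genes the order was the opposite. The ratio was 1.45 ± 0.07 in CON and 1.50 ± 0.07 in OAA (edgeR adjusted p = 2.5e-14 and 1.2e-14). NDUFS6 alone supplied 24.0% of all reads on the own peaks of the subunit genes in labelled input from CON, against 4.51% in labelled IP. NDUFV3, a small accessory subunit, stayed at the typical gene, with ratios of 0.04, 0.05 and -0.12 in the CON cultures and 0.04, 0.08 and 0.10 in OAA, and supplied 12.5% of those labelled-input reads. NDUFB5 (0.23 ± 0.38 in CON) was not called either.

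In complex II, which oxidises succinate, the flavoprotein SDHA was at -1.80 ± 0.22, the membrane anchor SDHC at -1.66 ± 0.15 and the iron-sulphur subunit SDHB at -0.74 ± 0.15 in CON, and all 3 were called lower. SDHD, the other anchor, had only a peak shared with TIMM8B, at -2.02 ± 0.22.

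In complex III, the cytochrome bc1 complex, the small subunits UQCRQ (-1.93 ± 0.08) and UQCR10 (-1.59 ± 0.10) and the Rieske iron-sulphur protein UQCRFS1 (-1.57 ± 0.07) were lower than cytochrome c1 (CYC1, -0.92 ± 0.13) and the core proteins UQCRC2 (-0.90 ± 0.24) and UQCRC1 (-0.76 ± 0.32) in CON. The other small subunit, UQCRH, had only a shared peak, at -0.96. In OAA this order did not hold throughout, with UQCRC2 at -1.55 ± 0.24 and UQCRFS1 at -1.52 ± 0.07. UQCRC1 passed narrowly in CON (edgeR adjusted p = 0.038). Its call was lost without CON labelled IP 2 (-0.59) or 3 (-0.71) and without CON labelled input 2 (-0.55) or 3 (-0.56), and its cultures ranged from -1.45 to 0.36. In OAA it was at -1.18 ± 0.32 (edgeR adjusted p = 0.0020).

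In complex IV, cytochrome c oxidase, the lowest values were those of COX7C (-2.32 ± 0.12), COX7B (-2.07 ± 0.20) and COX6A1 (-1.96 ± 0.09), small subunits around the catalytic centre, and in OAA those of COX7C (-2.44 ± 0.12), COX7B (-2.40 ± 0.20) and NDUFA4 (-2.19 ± 0.19). COX7C had 24.1, 19.3 and 21.8 CPM in CON labelled input and 99.6, 104 and 124 in CON labelled IP, and 22.1, 18.8 and 22.2 against 113, 117 and 112 in OAA. The labelled-IP values lay above every labelled-input value. COX8A was at -1.48 ± 0.27 and COX5A, a subunit on the matrix side, at -1.88 ± 0.13, and COX6A2, the isoform of heart and muscle, at 0.01 ± 0.14, which was not called. The only complex IV gene called higher was the entry of COX6B1 with identifier ENSSSCG00000043977, at 1.40 ± 0.35 in CON and 2.46 ± 0.37 in OAA, whose level of 0.196 FPKM in CON was far below the 64.0 of the other COX6B1 entry.

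In complex V the catalytic F1 head included the lowest value of all. ATP5F1A, the alpha subunit of the head, had 21.4, 11.6 and 17.2 CPM in the labelled-input libraries of the CON cultures and 152, 150 and 160 in their labelled-IP libraries. In the OAA cultures the values were 12.8, 15.4 and 20.8 against 185, 193 and 149. Every labelled-IP library exceeded every labelled-input library, and the treatments overlapped in both. The ratio was -3.19 ± 0.17 in CON and -3.43 ± 0.17 in OAA (edgeR adjusted p = 7.9e-14 and 2.1e-14), the minimum over all 9097 genes tested in either treatment. The gamma subunit ATP5F1C (-2.30 ± 0.14) and the stalk subunit ATP5PO (-2.12 ± 0.18) followed. The 5 F1 genes had a median of -1.78 and the 2 peripheral stalk genes -1.82. Nearer to 0 were ATP5MC1 (-0.68 ± 0.13) and ATP5MC3 (-0.85 ± 0.08) of the proton-carrying c ring, and the membrane accessory subunits ATP5ME (-0.76 ± 0.09) and ATP5MF (-0.84 ± 0.10). This did not hold for all genes of these parts. The other c-ring gene, ATP5MC2, had only a shared peak, at -1.40, and the lowest of the 3 membrane accessory genes tested was at -1.59.

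Per peak the picture was less uniform. Of 116 member peaks tested in CON, 86 were called lower and 13 higher, where 34.2% of all 24145 peaks were called lower and 33.9% higher (68% in all). In OAA 90 were lower and 15 higher, where 34.4% of all peaks were lower and 34.1% higher (68.5% in all). The medians were -1.26 and -1.34. Complexes II, III and V had no peak called higher in CON, and all 13 were listed under genes of complex I (7) and complex IV (6). By position, the 59 tested start-codon peaks had a CON median of -1.28, with 49 lower and 2 higher, beside -0.18 over 5188 start-codon entries on all mRNAs, of which 35.6% were called lower. The 15 stop-codon peaks had -1.37 beside 0.28, the 11 3'-UTR peaks -1.49 beside -0.31, the 10 5'-UTR peaks -0.53 beside 0.22, and the 9 peaks in coding sequence alone -1.21 beside -0.06. At these positions the median of the subunit peaks was the lower one, but the 3 tested peaks over both codons had a median of 1.16 beside 0.69. The 5'-UTR value came from the shared peaks (6, median -1.50), whereas the 4 under 1 gene ran from -0.60 to 3.27 (median 1.34). Of these 4, 2 were called higher and 0 lower in CON, and 2 higher and 1 lower in OAA. The 2 called higher in CON, of NDUFB2 and COX7A2L, had 3 or fewer labelled-IP reads there. The 73 peaks under 1 gene had a median of -1.27 and the 43 under several -1.16. The 24 tested peaks listed under genes without a peak of their own had a median of -1.11, with 17 lower and 4 higher. Not all of those 20 genes had a tested peak.

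More than 1 peak was tested in 26 genes, and in 9 of them peaks listed under the same gene were called on opposite sides in CON. For COX4I1 and COX7B this rests on peaks outside the listed span of the gene. The median distance between the highest and the lowest peak of these 26 genes was 1.54 on the log2 scale.

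**Figure D2:**
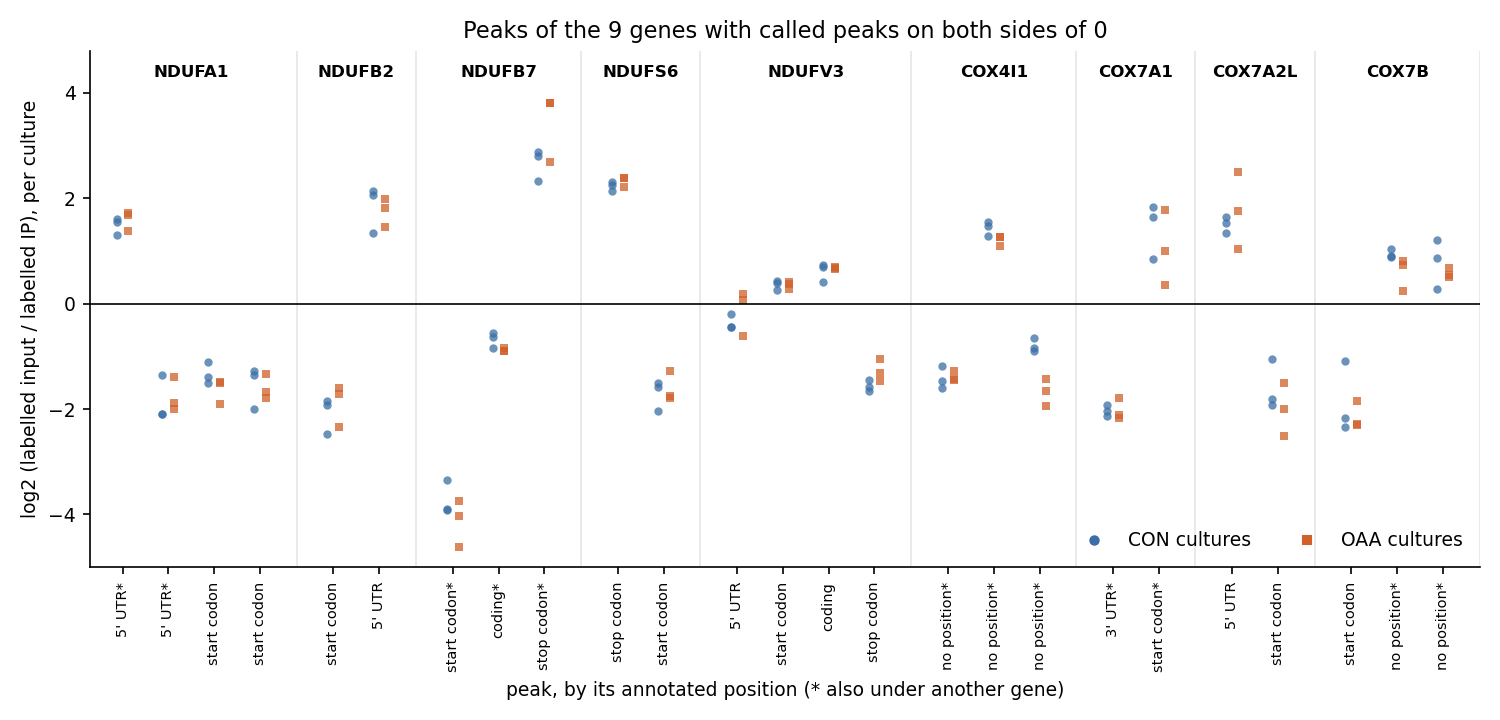
Peak ratio per culture (log2 of labelled input over labelled IP, vertical axis) for every tested peak of the 9 genes with called peaks on both sides of 0 in CON, with circles for the 3 CON and squares for the 3 OAA cultures and an asterisk for peaks that also lie under another gene. In NDUFS6 the stop-codon peak lies above 2 and the start-codon peak below -1 in all 6 cultures. The COX4I1 peaks and the shared COX7B peaks lie outside the listed span of those genes.

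NDUFS6 had both of its peaks to itself. The stop-codon peak (chromosome 16, 78993912 to 78994286 in the coordinates of the files, whose build is not given in the sources used here) held 629, 592 and 592 CPM in CON labelled input and 127, 133 and 124 in CON labelled IP. The start-codon peak (78995090 to 78999979) held 22.6, 17.0 and 22.1 against 68.5, 71.2 and 63.5. The ratios were 2.24 ± 0.08 and -1.71 ± 0.13 in CON and 2.33 and -1.64 in OAA, so the start-codon peak lay with the other subunit genes and the stop-codon peak did not. Of the 4 peaks of NDUFV3, the coding peak was at 0.61 ± 0.08 and the stop-codon peak at -1.59 ± 0.12. Its start-codon peak at 0.37 ± 0.12 was no longer called with library size alone as the scaling (0.06) or without CON labelled IP 1 (0.30), nor in OAA without OAA labelled IP 3 (0.26), and its 5'-UTR peak at -0.41 was not called.

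The other genes with peaks on both sides drew on shared or thinly covered peaks. NDUFA1, a membrane-arm subunit, had a 5'-UTR peak at 1.50 ± 0.11 and another at -1.90 ± 0.20, both shared with RNF113A, and its own start-codon peaks at -1.40 ± 0.22 and -1.55 ± 0.18. NDUFB7 had -3.72 ± 0.14 at the start codon, -0.70 ± 0.17 in the coding sequence and 3.11 ± 0.37 at the stop codon, all shared with TECR, and the last rested on 15 labelled-IP reads in CON. COX4I1 had -1.48 ± 0.22, 1.44 ± 0.11 and -0.89 ± 0.34 in peaks listed under neighbouring genes too. These peaks, from 3210748 on, lie outside the listed span of COX4I1 (chromosome 6, 3131019 to 3137530). COX7B had -1.84 ± 0.19 at its own start codon, and 0.97 ± 0.17 and 0.78 ± 0.18 in peaks shared with ATP7A. The calls of these shared peaks in OAA were lost with library size alone as the scaling (0.32 for each). They lie from 62051645 on, outside the listed span of COX7B (chromosome X, 61962415 to 61970161). COX7A1, the muscle isoform, had -2.03 ± 0.07 in a 3'-UTR peak shared with CAPNS1 and 1.98 ± 0.59 in a start-codon peak with 9 labelled-IP reads. The OAA call of that peak was lost with library size alone (1.16) and without OAA labelled IP 2 (1.20) or 3 (1.35).

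Where labelled IP had 3 or fewer reads, the ratio is given as a fold with an exact 95% interval for counting error alone. The 5'-UTR peak of NDUFB2 was 10.5-fold higher in CON labelled input than in labelled IP (3.50 to 51.4), beside -2.15 ± 0.17 at its start codon. That of COX7A2L, which joins respiratory complexes into supercomplexes, was 9.32-fold higher (2.49 to 78.4), beside -1.58 ± 0.18 at the start codon. The 3'-UTR peak of COX6B1 ENSSSCG00000043977 had 137 labelled-input reads and 0 labelled-IP reads in CON, at least 11.2-fold higher against a floor of 3 counts over the group.

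In FPKM the ATP synthase led. FPKM, which is per length of transcript, came from 6 libraries whose codes are those labelled IP. Since it is not settled which libraries were pulled down, FPKM may hold signal selected for m6A, and a level below means deposited FPKM in these libraries. All 78 genes had a row, and 74 reached 1 FPKM in 3 libraries. In CON the median was 145 FPKM for complex V, 71.5 for IV, 64.8 for III, 49.4 for II and 49.1 for I, and 20 of the 74 genes exceeded 100 FPKM, against 5.86% of all genes that passed this filter. Of the 20, 11 were in complex V and 4 in complex I. In order, the highest were COX4I1 (437 ± 8.10, SD, n = 3), ATP5F1B, the catalytic beta subunit (383 ± 4.85), ATP5PO (321 ± 9.49), COX8A (280 ± 5.84), ATP5MC2 (256 ± 5.36) and CYC1 (251 ± 8.80), of which the last pair did not differ beyond their spread. Among the high genes of complex I was NDUFB9 (137 ± 4.84), in complex II SDHB (88.0 ± 2.84) and SDHD (55.1 ± 2.83) led, and in complex III UQCRH (155 ± 5.83) followed CYC1.

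At the low end stood ATP5F1E, the epsilon subunit of F1 (2.98 ± 0.31), and NDUFB1 (3.45 ± 1.12), whose spreads overlap. Of the genes that passed the filter, the 2 lowest were NDUFB1 and NDUFB11 (9.27 ± 0.75) in complex I, SDHC (27.2 ± 1.01) and SDHA (43.8 ± 0.85) in II and UQCRFS1 (31.9 ± 0.61) and UQCR10 (44.4 ± 1.73) in III. In complex IV they were COX6A2 (5.23 ± 0.22) and COX7C (24.3 ± 1.25), and in V ATP5F1E and ATP5ME (13.7 ± 0.69). Between the highest and the lowest gene lay a 146-fold range. Subunits of 1 complex thus spanned most of the range of the whole group. Of the tissue isoforms, the muscle forms were the lower ones, with COX6A1 at 39.1 ± 1.57 against 5.23 for its muscle form COX6A2, and COX7A2 at 68.0 ± 1.70 against COX7A1, which was listed at 0 in all CON libraries and at 0.419 in OAA 1 alone.

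**Figure D3:**
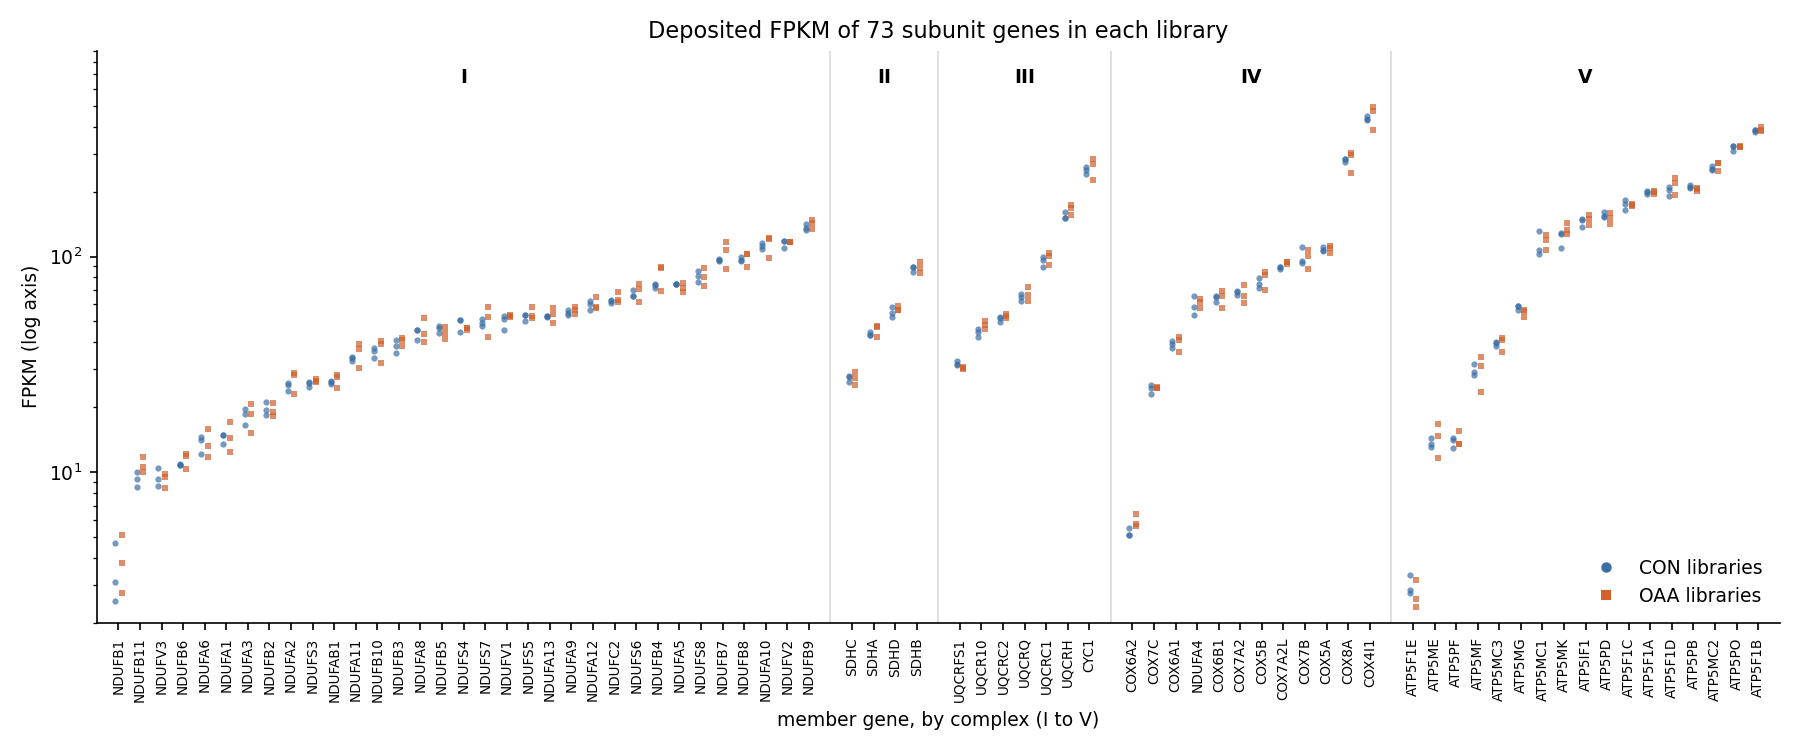
FPKM as deposited (vertical axis, log scale) of 73 of the 74 subunit genes that reached 1 FPKM in 3 libraries, ordered within complexes I to V, with circles for the 3 CON and squares for the 3 OAA libraries. The spread between libraries of a gene is small beside the 146-fold range between genes, and 11 genes of complex V lie above 100 FPKM.

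The peak ratio and the level were related only loosely among the subunits. Across the 58 genes Spearman's rho between the CON ratio and CON FPKM was -0.22, and across 8793 genes of the whole table -0.53. These are correlations across genes of the same libraries, and genes are not independent replicates. FPKM carries the codes of the labelled-IP libraries, by which the ratio is divided, so the measures are not independent. How much of the negative correlation this coupling makes was not tested. Between 26.3 and 96.4 FPKM, the range between the quartiles of the subunit genes, the 1705 genes of the table had a median ratio of -0.80, and 63.4% were called lower. The 28 subunit genes in that range had -1.58, and 25 were called lower. Genes at this level thus lay below the typical gene as a whole, and the median of the subunits lay lower still. Choosing genes by this FPKM has the same limit.

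No subunit gene was called for OAA against CON in any comparison. In a bulk culture fewer cells and less RNA per cell cannot be told apart, and all comparisons here are relative to the typical gene. FPKM gave 0 of 74 called by limma, where 0% of 10763 genes were called. At an unadjusted p under 0.05 limma had 356 genes, 1 of them a subunit. It was NDUFB11, a membrane-arm subunit of complex I, with 8.50, 9.29 and 10.0 FPKM in CON and 11.8, 10.6 and 10.1 in OAA. Its groups did not overlap, by a narrow margin, and on the log2(FPKM + 1) scale the difference was 0.20 ± 0.08 (SE; 95% interval 0.02 to 0.38; limma adjusted p = 1.00). The next smallest p were those of ATP5MK (0.14 ± 0.07), UQCR10 (0.11 ± 0.06), COX6A2 (0.15 ± 0.08) and UQCRH (0.10 ± 0.05), none of which passed.

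With NDUFB11, 4 of 74 subunit genes had all OAA libraries above all CON libraries, where 3.28% of all genes did. NDUFS3, a core subunit of complex I, had 25.8, 24.7 and 26.1 FPKM in CON and 26.6, 27.0 and 26.1 in OAA, COX6A2 5.10, 5.49 and 5.11 against 6.37, 5.74 and 5.65, and COX7A2L 89.7, 87.2 and 89.2 against 92.2, 94.1 and 94.7. Below CON in every OAA library were 2 of 74, where 5.27% of all genes were. UQCRFS1 had 31.7, 31.4 and 32.6 in CON against 30.6, 30.3 and 30.1, and ATP5MG, a membrane subunit of the synthase, 59.0, 58.6 and 56.4 against 52.3, 56.1 and 56.2. The separations are small beside the levels, and both counts are near the background.

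The OAA libraries differed among themselves over the whole group. In OAA library 1, 67 of the 74 genes lay above their CON mean (median shift 0.09 on the log2 scale), in OAA library 2, 57 did (0.08), and in OAA library 3 only 18 (-0.06), while the medians over all genes were -0.001, -0.005 and -0.025. All 5 complexes had medians below 0 in library 3, from -0.09 in complex I to -0.04 in complex V. The subunit genes took 1.38, 1.39 and 1.42% of all FPKM in the CON libraries and 1.45, 1.44 and 1.34% in the OAA libraries, so 2 OAA libraries lay above CON and 1 below. The median difference between the treatments was 0.03, with 55 of 74 genes above 0 (beside -0.01 and 43.0% over all genes), and it was 0.08 without OAA 3 and -0.001 without OAA 1. OAA 3 was the lowest OAA library in 57 of the 74 genes, against 46.7% of all genes. The median coefficient of variation was 3.69% in CON and 7.19% in OAA, beside 5.43% and 7.92% over all genes tested, so OAA was the more variable there too.

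**Figure D4:**
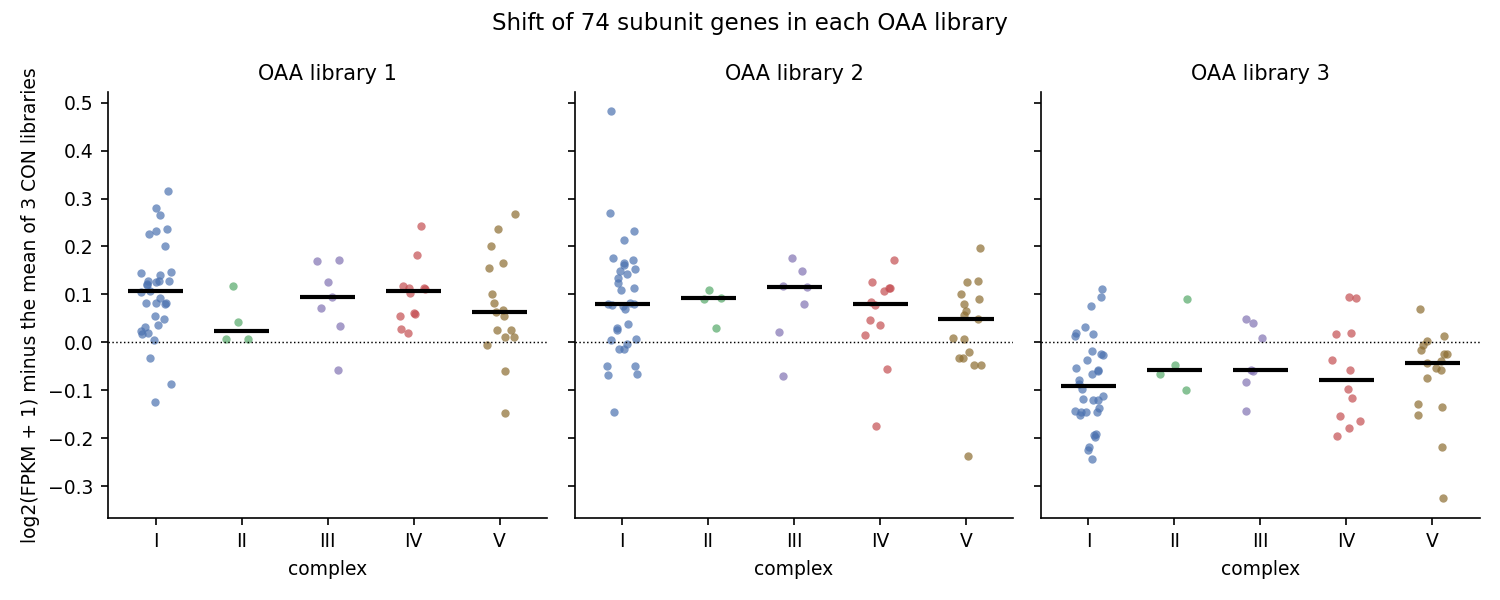
Difference of log2(FPKM + 1) in each OAA library from the mean of the 3 CON libraries (vertical axis), with 1 point for each of 74 subunit genes by complex (horizontal axis) and a line at each complex's median. The medians of all 5 complexes lie above 0 in OAA libraries 1 and 2 and below 0 in OAA library 3.

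In the peak counts edgeR called 0 of 58 subunit genes for OAA against CON in labelled input, where 0% of 9298 genes were called. At an unadjusted p under 0.05 there were 453 genes, 1 of them a subunit, and DESeq2 called 1 gene and 0 subunits. The subunit with an unadjusted edgeR p under 0.05 was COX7A2, the ubiquitous form, with 19.6, 13.9 and 15.2 CPM in CON and 12.8, 11.9 and 10.5 in OAA. Its OAA cultures were all below its CON cultures, with a log2 difference of -0.47 ± 0.17 (95% interval -0.83 to -0.10; edgeR adjusted p = 0.93). COX6B1 ENSSSCG00000043977 (0.42 ± 0.24), COX6A2 (-0.22 ± 0.13), COX7A2L (-0.36 ± 0.22) and UQCRQ (0.14 ± 0.09) came next and did not pass. Complex IV had 3 of 11 genes above 0 (median -0.22) and complex V 3 of 12 (median -0.05), where 48.8% of all genes were above 0. In complexes I, II and III 15 of 26, 2 of 3 and 4 of 6 genes were above 0 (medians 0.03, 0.01 and 0.02). The median of all 58 subunit genes was -0.01, and it was 0.10 without CON labelled input 1 and -0.08 without CON labelled input 2.

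In labelled IP edgeR called 0 of 57 subunit genes, where 0% of 8138 genes were called. At an unadjusted p under 0.05 there were 297 genes and 0 subunits, and DESeq2 called 0. The subunits with the smallest p were UQCR10 (0.15 ± 0.07), with 180, 187 and 180 CPM in CON and 204, 204 and 198 in OAA, ATP5F1A (0.19 ± 0.10), UQCRC2 (0.34 ± 0.20), NDUFB6 (0.28 ± 0.19) and NDUFB11 (0.16 ± 0.13). The OAA libraries of UQCR10 all lay above its CON libraries. The median over the 57 genes was 0.04. It was 0.13 without OAA labelled IP 3, where 44 genes of the whole table but 0 subunits were called, and -0.03 without OAA labelled IP 1.

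**Figure D5:**
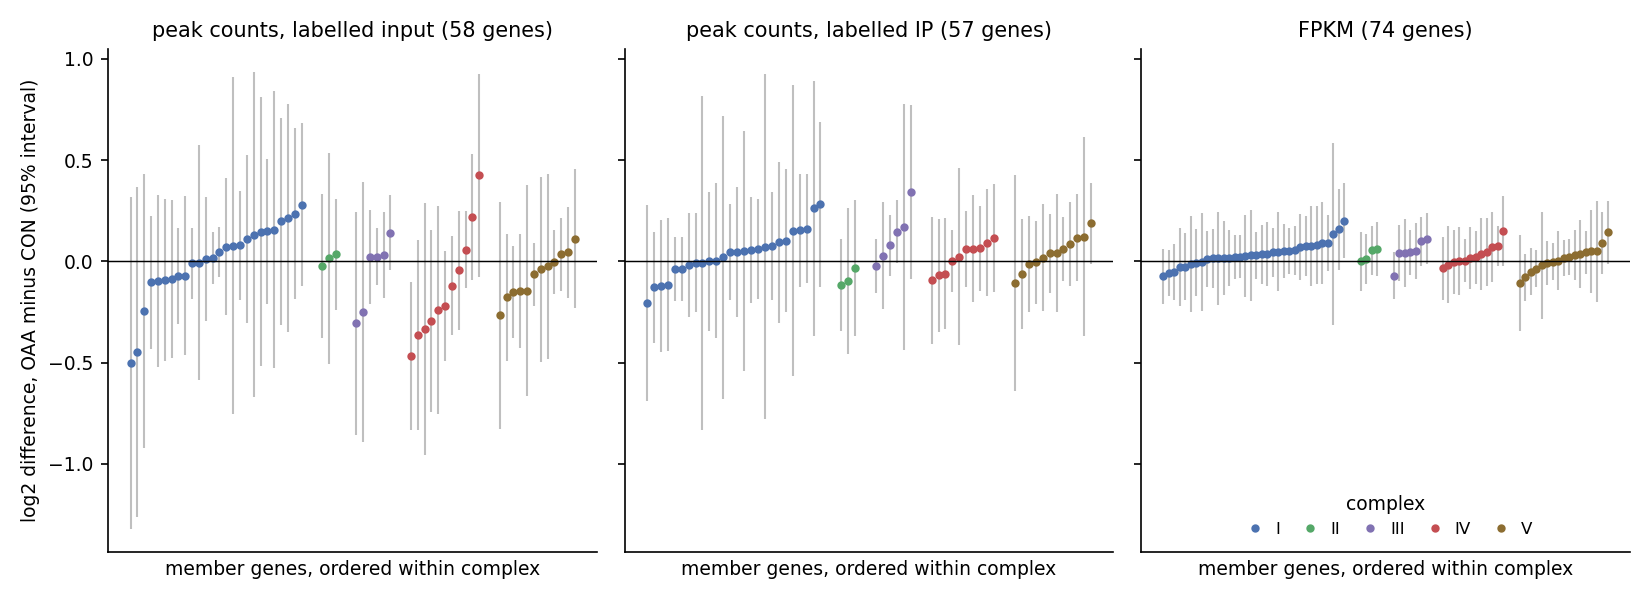
Log2 difference of OAA minus CON with its 95% interval (vertical axis, the same for all panels) for subunit genes ordered within complexes I to V, in peak counts of labelled input (58 genes), of labelled IP (57 genes) and in FPKM (74 genes). Most intervals are wider in the peak counts than in FPKM, which is shown as log2(FPKM + 1), where all 74 lie within 0.58 of 0.

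The intervals bound what could be missed. In labelled IP 45 of 57 lay within a 1.5-fold change in either direction (0.58 on the log2 scale), and in labelled input 36 of 58. In FPKM all 74 did on the log2(FPKM + 1) scale, on which the interval of the low gene NDUFB1 (3.45 FPKM) ran from -0.31 to 0.58 and spans more in FPKM itself. These bounds are for each gene and cover the spread between these samples.

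The change of the peak ratio with OAA was not called for any gene by edgeR, where 0% of 9097 genes were called. At an unadjusted p under 0.05 there were 339 genes and 0 subunits, and DESeq2 called 0. The smallest p among subunits were those of NDUFS4, whose ratio was -2.34 in CON and -1.93 in OAA (0.41 ± 0.21, 95% interval -0.02 to 0.83), UQCRC2 (-0.65 ± 0.34), COX6B1 ENSSSCG00000043977 (1.06 ± 0.54), COX7A2 (-0.40 ± 0.21) and NDUFV2 (0.35 ± 0.23), with edgeR adjusted p of 1.00. The median was -0.08 (beside -0.005 over all genes), 0.04 without CON labelled input 1 and -0.16 without OAA labelled IP 3. Per peak, edgeR called 0 of 116, where 0% of 24145 peaks were called. At an unadjusted p under 0.05 there were 1077 peaks, 3 of them subunit peaks. They were listed under NDUFB7 (-0.43), COX4I1 (-1.07) and ATP5MF (-0.41), all shared with neighbours. That of COX4I1 lies outside the listed span of the gene. DESeq2 called 1 peak, and 0 on subunits. In the authors' deposited table the smallest p-value of a subunit peak was 0.0470, at COX6B1 ENSSSCG00000043977, and the smallest adjusted one 1.00.

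Other genes that build or complete the same enzymes were read beside them. Of 13 mitochondrially encoded subunits, 8 were tested and all 8 were called lower in CON, with a median of -1.68. Of 51 assembly factors, which insert cofactors and join modules, 27 were tested, 14 called lower and 9 higher, with a median of -0.53, where 37.8% of all genes were called lower and 38.9% higher. With OAA, limma called 0 of the 13 mitochondrially encoded genes (median 0.02 in FPKM) and 0 of the 45 assembly factors tested (median -0.01). COX1, the mitochondrially encoded catalytic subunit of complex IV, was at 16984 ± 251 FPKM in CON, far above the 437 of COX4I1. The assembly factor ECSIT of complex I, chosen after its values were seen, was at 52.7 ± 1.40 FPKM in CON and 59.6 ± 1.99 in OAA, which limma did not call (0.17 ± 0.05 on the log2 scale).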

How the data were processed

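Per the labels' protocols, RNA was cut to pieces of about 100 nt, part of it was enriched with an m6A antibody, and random-primed Illumina libraries were made. The submitters' processing notes name Bowtie2 and HISAT2. Roles, versions, peak caller, strand and build: not given in the sources used here. Per the file headers, the authors deposited raw read counts of each library in merged peaks, a log2 ratio per treatment, and a p-value and adjusted p-value between treatments. The authors' −log10 columns repeat those p-values and were not used. The authors' gene table gives FPKM of 6 libraries. The number of library columns with no sample was 0. The peak table can list a peak under several genes (29011 entries, 25055 peaks), not always within the gene's listed span. Each peak was counted 1 time per gene or test. Coordinates are 1-based, with 1 added to the listed starts.

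The complex of a gene was read from its symbol, and the members and lists were chosen with earlier results of these data known. Counts were compared with edgeR 4.0.16 in R 4.3.3 (TMM, default filter), in a 4-group fit of 12 libraries for ratios and in 6 libraries for treatments. FPKM of at least 1 in 3 libraries were compared as log2(FPKM + 1), which understates changes of low genes, with limma 3.58.1 and a trend. P-values were adjusted over all features, with calls under 0.05. CPM are TMM scaled over 12 libraries, and ratios per culture add 0.5 to them. Per-gene and per-peak ratios have separate scalings. The per-gene edgeR fits were tested on simulated counts, and the per-peak, limma and DESeq2 fits were not.

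By rule the text names the highest and lowest ratios (3 each in complexes I, IV and V, 1 in II and III), members called on the less common side, the 5 smallest p where none was called, the 2 highest and 2 lowest FPKM per complex, and genes with peaks on both sides of 0. Of the genes so chosen, 1 is not reported here by name or plotted by name. Other names are examples chosen after values were seen. By the protocol, libraries of 1 number share an RNA. Their deviations correlated at -0.035 to 0.137, which shows little pairing, and numbers pair nothing between treatments. Alternatives were DESeq2 1.42.0, other scalings and filters, shared peaks, replicate blocks and left-out libraries. FPKM carry no depth. Entries with the same symbol, and near-identical gene copies, may have split reads.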

Additional observations from a re-analysis of the deposited data

How the results depend on the processing

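Counts of called subunit genes and peaks in 8 comparisons of counts and 1 of FPKM, and the medians of complexes I and IV with NDUFA4 moved to I, stayed on their side and within 1.5 times in all 142 alternatives run. Called subunit genes numbered 52 to 66 of the ratio in CON and 54 to 67 in OAA, the upper ends with shared peaks added (72 genes tested in CON). With 1 library left out they numbered 52 to 55 and 54 to 55, and called peaks 92 to 101 and 97 to 106. Comparisons of OAA with CON and the change of the ratio stayed at 0 subunits, but their subunit medians changed sign with 1 library left out. Per gene these medians ran from -0.16 to 0.04 for the change of the ratio and from -0.08 to 0.10 in labelled input. In labelled IP they ran from -0.03 to 0.13, and in FPKM from -0.001 to 0.08. Library size alone moved the median ratio of all genes from 0.03 to -0.09 and of all peaks to -0.28, and the subunit medians to -1.67 and -1.56. With the replicate block, 54 subunit genes were called in CON, 55 in OAA and 0 for the change, the same numbers as without it, and the block changed no call of a named value. Of 2136 alternatives for 129 named values, 2116 kept call and direction, 18 lost the call, 2 gained it and 0 reversed. The calls lost were of UQCRC1 and of peaks of NDUFV3, SDHB, NDUFA5, COX7A1 and COX7B, and those gained were of the start-codon peak of CYC1. Depth limits the thinly covered peaks: the SE was 0.59 for a COX7A1 peak with 9 labelled-IP reads in CON and 0.08 for an NDUFS6 peak with 1745.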

Other observations

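Other mitochondrial lists held genes on both sides of the typical gene in the peak ratio. Of 14 enzymes of the tricarboxylic acid cycle, which supplies NADH and succinate to complexes I and II, 12 were tested in CON, 7 called lower and 2 higher by edgeR, with a median of -0.89 and single genes from -1.83 to 1.72. Cytochrome c (CYCS), the carrier between complexes III and IV, was called lower at -0.84. Of 10 regulators of mitochondrial biogenesis, 9 were tested, 5 called lower and 2 higher, with a median of -0.42, where 37.8% of all genes were called lower and 38.9% higher. In FPKM limma called 0 of these genes with OAA, and the medians were -0.01 for the cycle enzymes, 0.004 for CYCS and -0.06 for the regulators. PPARGC1A, a coactivator that drives mitochondrial biogenesis, was at 0.077 ± 0.033 FPKM in CON, and TFAM, which packages mitochondrial DNA, at 36.2 ± 1.46 FPKM.

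The symbols NDUFA5 and ATP5ME stood on more than 1 identifier with unequal values. The NDUFA5 entry on chromosome 9 was listed at 0 FPKM in all 6 libraries, beside 74.8 ± 0.17 FPKM in CON for the entry on chromosome 18, yet its peak, shared with DSTYK, held 5208 labelled-input and 385 labelled-IP reads in CON. The ATP5ME entry whose peak is shared with IQCM was listed at 0 FPKM throughout and had 56 labelled-input and 0 labelled-IP reads in CON, at least 4.58-fold higher in labelled input against a floor of 3 counts over the group.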
